A study of Phyllostachys edulis with 12 samples.

Results

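The 150 genes described here are the most heavily counted of the gene models that carry newGene in their identifier, in moso bamboo (Phyllostachys edulis, a tall bamboo grown for timber and shoots). They were chosen by their mean CPM (the count divided by the library's total count and multiplied by 1000000) over the 3 control libraries, out of 15104 newGene entries and 47091 genes in the table. RNA sequencing was done on seedlings 3 weeks old and at the 3-leaf stage. Control seedlings had no cold treatment, and the cold seedlings spent 0.5 h, 1 h or 24 h at -2 °C in a chamber lit like that of the controls. The groups held 3 control libraries, 3 from 0.5 h, 3 from 1 h and 2 from 24 h, and columns were tied to samples through the codes in the descriptions. One count column (1 in all) carried a code that no sample's description has, so it was not used, and the third labelled 24 h sample was not analysed here. If the table were coded differently from the labels, the replicate numbers and the size of the 24 h group would not be those given here. The labels do not say whether the replicates were separate plants, so p-values measure only the spread between these libraries, which may be technical.

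An entry called newGene is, by its name, a transcribed locus that was modelled in addition to the annotated genes, whose identifiers here start with PH01. Models of this kind are usually assembled from the aligned reads themselves, and they may stand for protein-coding genes that an annotation lacks, for long non-coding RNAs or for pieces of neighbouring genes. The sources used here do not say how these were built, and the table pairs none of them with a name, a position or a sequence, so no function is given for any of them. In plants, chilling and freezing are known to change transcription through calcium signals and CBF transcription factors, which switch on genes for osmolytes and protective proteins within hours. Whether any member belongs to that response cannot be read from its identifier. The full identifiers start with Phyllostachys_edulis_, which is left out below.

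Library totals ran from 29304206 to 34543663 counts. A member had a median of 6003 counts in a library, which gives a counting error of 1.29%, and at least 290 counts (5.87%); all 150 passed the filter on low counts. In whole seedlings, fewer cells of a type and less RNA per cell cannot be told apart.

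The members ran from 130 to 5695 mean control CPM, with a median of 185 CPM. The last 3 members stood at 131, 130 and 130 CPM (SD 8.26, 16.3 and 17.2, n = 3), and the next 3 newGene entries at 130, 129 and 129 CPM (SD 21.5, 5.22 and 1.41, n = 3), so the limit fell within replicate error. These levels chose the members and are a description. Among all genes of the table the members ranked from 7 to 1004 by control CPM, and 18 of them lay among the 150 most heavily counted genes. Counts were concentrated in few entries: newGene_14837 alone took 7.66% to 11.6% of the members' counts in a library, the first 10 took 36.6% to 44.2% and the first 50 took 67.7% to 73.4%.

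Most members were also among the most heavily counted newGene entries in libraries that the choice had not used. The 150 highest newGene entries at 0.5 h held 143 of them (95.3%), those at 1 h held 138 (92%) and those at 24 h held 127 (84.7%). The first of each list was newGene_14837. The lowest rank of a member among newGene entries was 261 at 0.5 h, 195 at 1 h and 456 at 24 h.

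The table lists a length for each gene. The members had a median length of 1940 bases, with quartiles of 1324 and 5076, against a median of 1284 for all newGene entries. Only 18 members (12%) were under 1000 bases long, against 41.7% of all newGene entries, and 23 (15.3%) were over 10000 bases, against 8.96%. The 854 annotated genes that reached the lowest member's control CPM were longer, with a median of 4724 bases. A longer gene gathers more counts at the same level, so a choice by CPM is not independent of length, and the table does not say whether a length is a span with introns or a sum of exons. The longest member is listed at 100553 bases. Per length the order changed: a list of 150 chosen by control CPM per kb of the listed length held 83 of the members (55.3%), with a median length of 1102 bases. The 50 shortest members, from 360 to 1450 bases, had a median of 179 control CPM per kb and 44.6% of the members' control counts. The 50 longest, from 3933 bases upward, had a median of 21.1 CPM per kb and 28% of those counts.

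**Figure D1:**
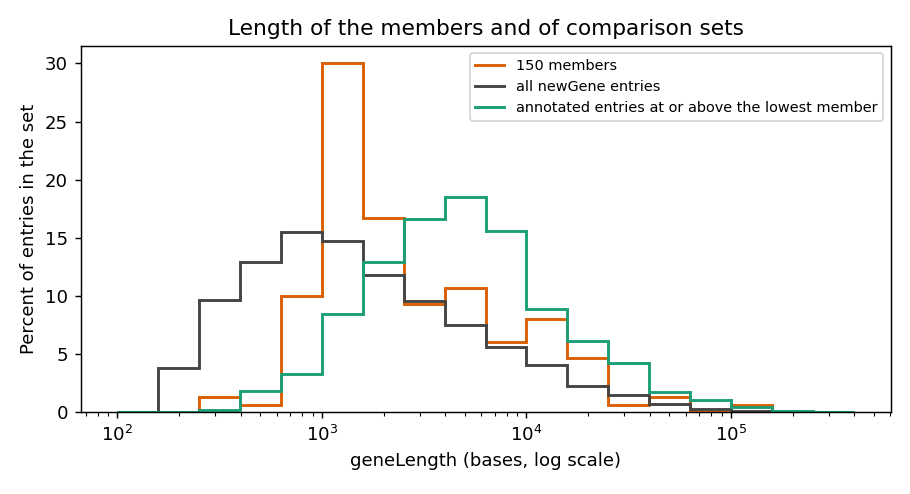
Length in bases (log scale, x axis) against the percent of each set's entries (y axis) for the 150 members, all newGene entries and the 854 annotated genes at or above the lowest member's control CPM. The members (median 1940) lie to the right of all newGene entries (median 1284) and to the left of the annotated genes (median 4724).

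The member with the most counts was newGene_14837, listed at 999 bases. Its CPM was 5241, 5551 and 6295 without cold, 5593, 6562 and 5785 at 0.5 h, 4948, 3985 and 5291 at 1 h, and 7132 and 6145 at 24 h. The 1 h values overlapped with the controls, and both 24 h values lay above every 1 h value. Per length it was also first among the members, at 5701 control CPM per kb. The second, newGene_15878, is listed at 3933 bases and stood at 4342, 4671 and 5269 CPM in the controls, 4552, 4998 and 5168 at 0.5 h, 4166, 4739 and 4101 at 1 h, and 5278 and 5095 at 24 h. It was the steadiest of the first 3, ranging 1.29-fold over all 11 libraries, and per length it came below newGene_15877, a model of 384 bases at 3824 control CPM per kb, since its own level was 1210.4 CPM per kb.

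The third, newGene_25180 (1320 bases), stood at 2133, 2469.7 and 2604 CPM in the controls, 2281, 2503 and 2742 at 0.5 h, 1876, 2015 and 1932 at 1 h, and 2835 and 2868 at 24 h. Its 1 h libraries lay below all others and its 24 h libraries above all others. The same order of means, lowest at 1 h and highest at 24 h, was seen in newGene_14902, with means of 1683 ± 162, 1788 ± 76.4 and 1423 ± 95.2 CPM in the control, 0.5 h and 1 h groups (SD, n = 3) and 1996 ± 52.8 CPM at 24 h (SD, n = 2). Both 24 h libraries lay above every 1 h library in 10.5% of all genes tested. The same held for 56.7% of the 150 most heavily counted annotated genes, and for 9 of the first 10 members. The exception was newGene_15877, at 1433, 1688 and 1339 CPM at 1 h and 1715 and 1582 CPM at 24 h.

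**Figure D2:**
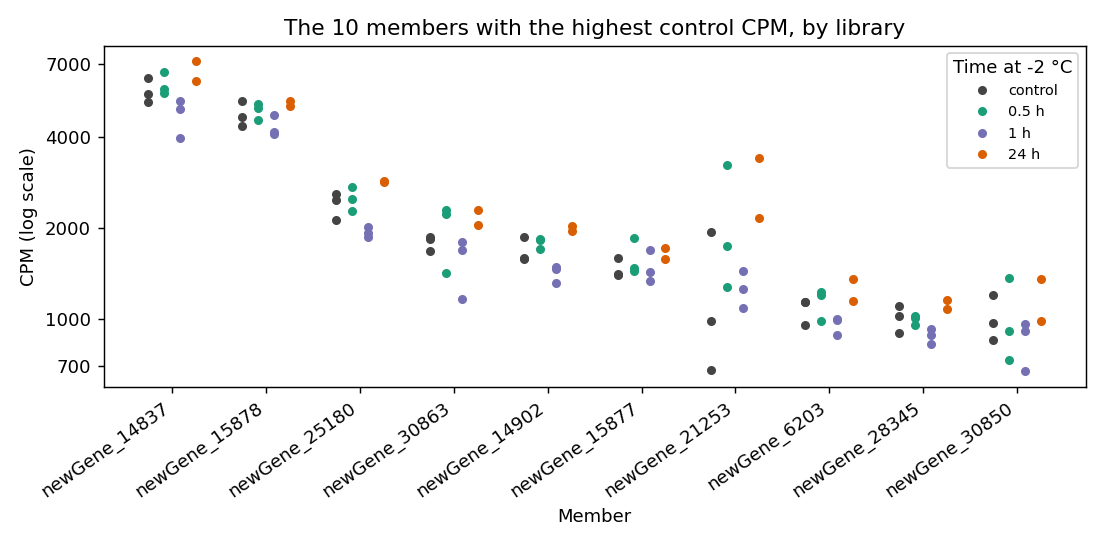
CPM (log scale, y axis) in each library for the 10 members with the highest control CPM (x axis), coloured by group; each point is 1 library. The 24 h points of newGene_25180 (2835 and 2868) lie above its other libraries, while the points of newGene_21253 spread from 679 to 3415.

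Together the members took a changing share of the libraries. The share was 5.2%, 5.65% and 5.61% without cold, 5.59%, 5.65% and 5.76% at 0.5 h, 5.13%, 5.2% and 5.17% at 1 h, and 6.18% and 6.01% at 24 h. Both 24 h libraries lay above all others, and the 1 h libraries lay below those at 0.5 h. All newGene entries together kept to 16.1% to 16.5% of the counts in every library. Within that, the members held 31.7% to 32.3% of the newGene counts at 1 h, 33.9% to 35.6% at 0.5 h, and 36.8% and 38.3% at 24 h. The 150 most heavily counted annotated genes moved in the same order, from 18.2% ± 0.933 of the counts at 1 h (SD, n = 3) and 20.6% ± 0.837 at 0.5 h (SD, n = 3) to 22.4% ± 1 at 24 h (SD, n = 2). Without the 10 members that ranged over 2-fold within a group, described further on, the mean share was 5.08% in the controls, 5.18% at 0.5 h, 4.79% at 1 h and 5.51% at 24 h.

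**Figure D3:**
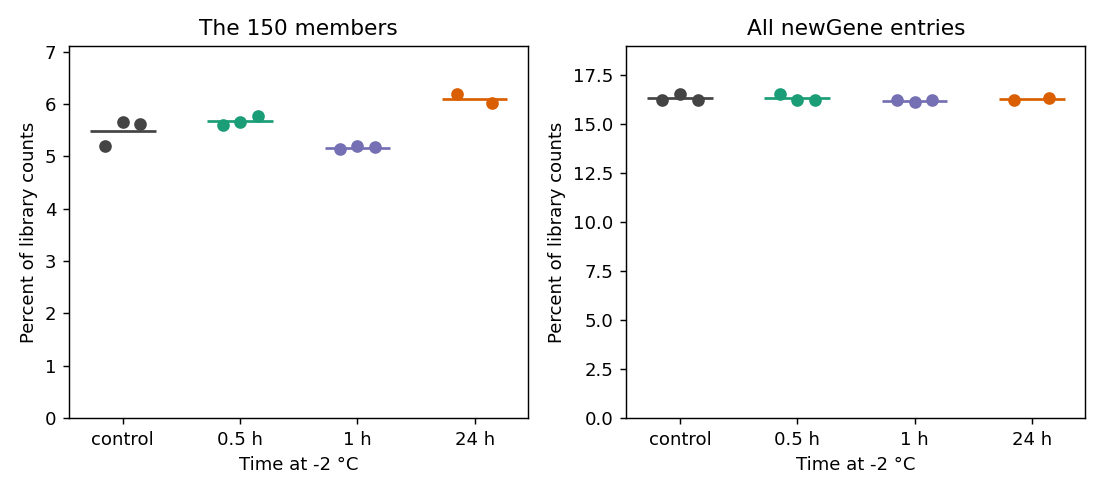
Percent of each library's counts (y axis) taken by the 150 members (left) and by all newGene entries (right) in each group (x axis); points are libraries and bars are group means. The members' share was highest in the 24 h libraries (6.18% and 6.01%), while that of all newGene entries stayed between 16.1% and 16.5%.

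The comparison of 24 h with 1 h compares no control values, although the control libraries, which chose the members, enter the fit's shared estimate of spread. At 24 h, 39 members were higher than at 1 h and 4 were lower (edgeR's quasi-likelihood test, adjusted p under 0.05 over all 39640 genes tested). That is 28.7% of the members, against 9.71% of all genes tested. It is not far from the 191 of 854 (22.4%) among annotated genes that reached the same control CPM, and it is below the 64 of 150 (42.7%) among the most heavily counted annotated genes; these differences between sets were not tested. With the fit restricted to the 2 groups concerned, 16 members were called higher and 2 lower, which is 12% of the members against 4.51% of all genes tested in that fit. By direction, with all libraries in the fit, 26% of the members were called higher, against 4.65% of all genes, and 2.67% were called lower, against 5.06%. Of the 854 annotated genes 20% were called higher and 2.34% lower, and of the 150 most heavily counted annotated genes 42.7% and 0%. In CPM, 50 members (33.3%) were higher in both 24 h libraries than in every 1 h library and 38 (25.3%) were lower, against 10.5% and 35.4% of all genes. For the 854 annotated genes these shares were 29.4% and 27.6%, and for the 150 most heavily counted annotated genes 56.7% and 15.3%.

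The changes were small. Fold changes of the 39 risen members lay between 1.36 and 2.31 on the scale of TMM-normalised counts, with a median log2 fold change of 0.67, and only 3 of the 43 called members changed at least 2-fold. Over all 150 members the median log2 fold change was 0.23, with quartiles of -0.02 and 0.57, against a median of -0.03 over all genes and 0.23 over the 854 annotated genes. The direction of the calls at 24 h against 1 h depended on whether scaling factors were used, and the median of all genes moved too. With library size alone that median was -0.25, and 14 members were called higher and 13 lower. These are 9.33% and 8.67% of the members, beside 2.43% and 10.7% of all genes. With upper-quartile factors 32 (21.3%) were higher and 4 (2.67%) lower, beside 3.92% and 5.73% of all genes. With RLE factors, another such scaling, 40 (26.7%) were higher and 4 (2.67%) lower, beside 4.83% and 4.95%. Without 1 h replicates 2 and 3 the count of 43 was 24 and 21 (16% and 14% of the members, beside 6.35% and 6.4% of all genes). With either 24 h library left out, which leaves 1 in that group, the count fell further.

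The largest rise among called members whose libraries did not overlap was that of newGene_29251, a model of 12338 bases. It stood at 145, 148 and 159 CPM without cold, 178, 166 and 205 at 0.5 h, 185, 191 and 179 at 1 h, and 371 and 362 at 24 h. Both 24 h libraries lay far above all others, the highest of which was at 205 CPM. The log2 fold change from 1 h to 24 h was 1.21 (SE 0.11, edgeR's adjusted p = 0.00022), and it kept its call in all 13 alternatives (log2 fold change from 0.99 to 1.25, highest adjusted p = 0.0046). The second, newGene_35286 (8611 bases), stood at 144, 220.4 and 202 CPM at 1 h and 362 and 343 at 24 h. Its control libraries, at 326, 191 and 182 CPM, and its 0.5 h libraries, at 294, 148 and 225, were far apart, and control replicate 1 came close to the 24 h level. Its log2 fold change from 1 h was 1.12 (SE 0.29, edgeR's adjusted p = 0.036), and the call was lost without any 1 of the 3 libraries at 1 h or of the pair at 24 h (adjusted p from 0.057 to 0.16).

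The largest fall was that of newGene_12685, a model of 4523 bases. Its CPM was 157, 152 and 171 without cold, 154, 144 and 138 at 0.5 h, 156, 154 and 129 at 1 h, and 54.5 and 64.8 at 24 h. The 9 libraries before 24 h lay close together, and both 24 h libraries were far below them. The log2 fold change from 1 h was -1.08 (SE 0.13, edgeR's adjusted p = 0.00076), with a highest adjusted p of 0.016 over its alternatives. The second fall was that of newGene_1341 (892 bases), with 266, 276 and 272 CPM in the controls, 271, 267 and 314 at 0.5 h, 385, 357 and 389.6 at 1 h, and 197 and 149.8 at 24 h. Its 1 h libraries were the highest of all and its 24 h libraries the lowest, and the log2 fold change between them was -0.90 (SE 0.14, edgeR's adjusted p = 0.0044; highest 0.041 over its alternatives).

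At 24 h against 1 h, 4.65% of all genes tested and 42.7% of the 150 most heavily counted annotated genes were called higher. Of the first 10 members by control CPM, 6 were called higher. The largest of these changes was in newGene_25180, where the log2 fold change was 0.77 (SE 0.13, edgeR's adjusted p = 0.005), which kept its call in all 13 alternatives. For newGene_14837 it was 0.71 (SE 0.16, edgeR's adjusted p = 0.019), and without 24 h replicate 1 it was 0.57 with an adjusted p of 0.14. For newGene_15878 it was 0.48 (SE 0.13, edgeR's adjusted p = 0.038), a call lost in 9 of 13 alternatives. The risen members had a median length of 1798 bases and those not called 1971 bases.

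**Figure D4:**
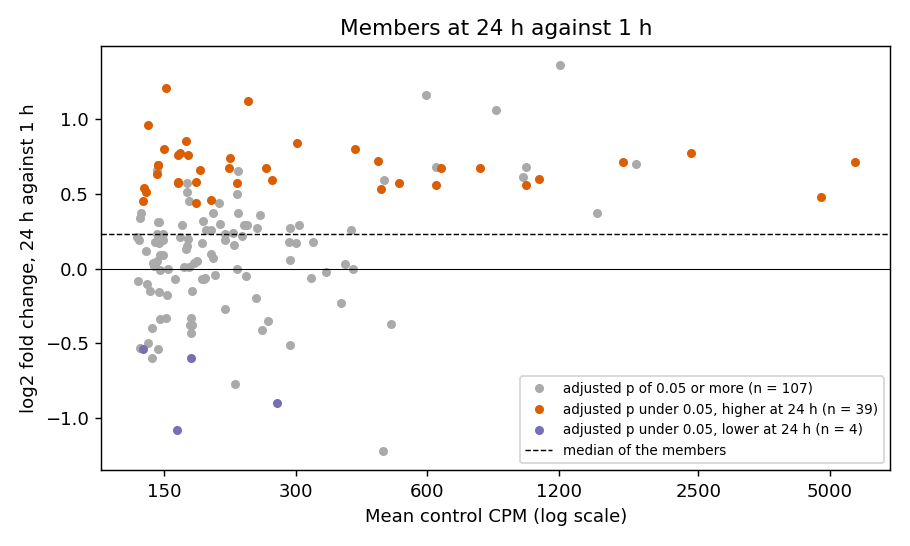
Log2 fold change at 24 h against 1 h (y axis) against mean control CPM (log scale, x axis) for the 150 members; each point is 1 member, coloured by edgeR's call. The 39 called higher lie between 0.44 and 1.21 on the y axis, above the members' median of 0.23.

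At 24 h against 0.5 h, where the controls again enter only the estimate of spread, edgeR called 6 members higher and 3 lower. This is 6% of the members, near the 5.06% of all genes tested (1.88% higher and 3.18% lower). With the fit restricted to the 2 groups concerned, 5 were higher and 1 lower (4% of the members, against 3.66% of all genes). DESeq2 called 16 higher and 7 lower, which is 15.3% of the members against 9.17% of all genes. It called 10.5% of the 854 annotated genes and 8.67% of the 150 most heavily counted annotated genes. The median log2 fold change of the members was 0.20, against -0.01 over all genes. It was 0.12 over the 854 annotated genes and 0.24 over the 150 most heavily counted annotated genes. The calls included newGene_29251, whose log2 fold change was 1.14 (SE 0.11, edgeR's adjusted p = 0.00035). They also included newGene_12685, at -1.15 (SE 0.13, edgeR's adjusted p = 0.00055), and newGene_1341, at -0.58 (SE 0.14, edgeR's adjusted p = 0.042). Of the 9 called members, 7 were also called in the same direction against 1 h; both comparisons use the 24 h libraries. The count was 4 or 5 without any single library at 0.5 h (2.67% to 3.33% of the members, beside 2.84% to 3.45% of all genes). It also fell with either 24 h library left out, which leaves 1 in that group. With library size alone 3 members (2%) were higher and 9 (6%) lower, beside 1.38% and 5.02% of all genes. With upper-quartile factors 3 (2%) were higher and 4 (2.67%) lower, beside 1.7% and 3.6% of all genes.

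At 1 h against 0.5 h edgeR called 0 of the 150 members, against 0.00252% of all genes tested. At an unadjusted p under 0.05, 27 members (18%) were lower at 1 h and 2 (1.33%) higher, beside 3.71% lower and 3.25% higher over all genes. Of the 854 annotated genes that reached the same control CPM, 17% were lower and 1.87% higher. Of the 150 most heavily counted annotated genes, 38.7% were lower and 1.33% higher. DESeq2 called 2 members lower and 0 higher (1.33%, beside 0.343% of all genes). The median log2 fold change of the members was -0.11 here, against 0 over all genes and -0.12 over the 854 annotated genes that reached the same control CPM. In newGene_25180 the log2 fold change was -0.46 (SE 0.11, edgeR's adjusted p = 0.66).

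Against the controls, whose libraries chose the members, the values are a description. At 24 h, 7 members were called higher and 4 lower by edgeR, which is 7.33% of the members beside 7.59% of all genes tested (3.25% higher and 4.34% lower). The log2 fold change was 1.45 for newGene_29251 (SE 0.11), -1.26 for newGene_12685 (SE 0.13), 0.41 for newGene_25180 (SE 0.13) and 0.38 for newGene_14837 (SE 0.16). DESeq2 called 29 members higher and 11 lower, which is 26.7% of the members beside 12.3% of all genes. It called 18.4% of the 854 annotated genes and 26.7% of the 150 most heavily counted annotated genes. With library size alone 3 members (2%) were called higher and 13 (8.67%) lower, beside 2.16% and 7.47% of all genes. With upper-quartile factors 6 (4%) were higher and 7 (4.67%) lower, beside 2.77% and 4.96% of all genes. The count of 11 was 17 without control replicate 3 (11.3% of the members, beside 7.07% of all genes). It was 8 without control replicate 1 or 2 (5.33%, beside 5.02% and 4.75%). It also fell with either 24 h library left out, which leaves 1 in that group. A list of 150 ranked on the 1 h libraries, a choice that used neither group of this comparison, had 8 higher and 4 lower. That is 8% of the list, near the 7.59% of all genes tested. At 0.5 h edgeR called 0 members, beside 0.0101% of all genes, with 3 members higher and 2 lower at an unadjusted p under 0.05 (2.76% and 1.88% of all genes), and DESeq2 called 0. At 1 h it called 0, beside 0.00505% of all genes, and DESeq2 called 0. At an unadjusted p under 0.05, 4 members were higher (2.67%) and 16 lower (10.7%), beside 3.59% and 3.29% of all genes. Of the 854 annotated genes 1.64% were higher and 8.78% lower, and of the 150 most heavily counted annotated genes 2% and 16.7%. The members' median log2 fold change was 0.03 at 0.5 h, -0.08 at 1 h and 0.20 at 24 h, against medians over all genes of 0, 0 and -0.01. For the 854 annotated genes the medians were 0.03, -0.09 and 0.15, and for the 150 most heavily counted annotated genes 0.07, -0.22 and 0.29. The 0.5 h, 1 h and 24 h comparisons share the control libraries.

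Most members were steady within a group, and a few were not. The median coefficient of variation of a member was 9.75% in the controls, 7.51% at 0.5 h and 11.4% at 1 h (3 libraries each) and 5.58% at 24 h (2 libraries). For the 854 annotated genes it was 10.8%, 8.19%, 12.7% and 7.18%. Within at least 1 group, 10 members (6.67%) ranged over 2-fold from the lowest to the highest library, as did 50 (5.85%) of those annotated genes.

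The widest range over the 0.5 h and 1 h libraries was that of newGene_15879, a model of 4501 bases. Its CPM was 1030.1, 1408 and 137 without cold, 165, 164 and 127 at 0.5 h, 151, 1082 and 151 at 1 h, and 1430.3 and 193 at 24 h. The libraries fell at 2 levels with none between, 4 above 1000 CPM and 7 below 200 CPM, and the high ones were in the control, 1 h and 24 h groups. Its mean control level of 859 CPM reflects its high control libraries, while its low control library, at 137 CPM, was itself above the last member's 130 CPM. No contrast between times was called for newGene_15879. The log2 fold change from 1 h to 24 h was 1.06 (SE 1.03, edgeR's adjusted p = 0.57) and turned to -1.06 without 24 h replicate 1. The next, newGene_23837 (10029 bases), stood at 145, 75.5 and 194 CPM in the controls, 74.5, 35.6 and 155 at 0.5 h, 78.7, 198 and 47.9 at 1 h, and 64.8 and 66.4 at 24 h. Its 24 h libraries lay below every control library and within the ranges at 0.5 h and 1 h, and its log2 fold change from 1 h to 24 h of -0.50 (SE 0.65, edgeR's adjusted p = 0.69) turned to 0.25 without 1 h replicate 2.

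Further members were singled out after their values were seen. The model newGene_22708 (11656 bases) was steady in 10 libraries, with 135, 139 and 147 CPM in the controls, 152, 158 and 147 at 0.5 h, 133, 139 and 105 at 1 h and 134 in 24 h replicate 2. In 24 h replicate 1 it was at 9.68 CPM, from 290 counts where the other libraries had 3279 to 5348. It thus stood 13.9-fold apart between the 2 libraries of the 24 h group, the widest range of any member within a group. No contrast at 24 h was called for it.

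Another pair ranged widely and together. The model newGene_21253 (3113 bases) stood at 679, 1944 and 986 CPM in the controls, 3248, 1745 and 1279 at 0.5 h, 1259.6, 1439 and 1092 at 1 h, and 2163 and 3415 at 24 h. The model newGene_39878 (1140 bases) stood at 318, 1002 and 467 CPM in the controls, 2125, 1024 and 729 at 0.5 h, 789, 836 and 706 at 1 h, and 1168 and 1828 at 24 h. Both were highest in 0.5 h replicate 1 and 24 h replicate 2 and lowest in control replicate 1. Over the 11 libraries they ranged 5.03-fold and 6.68-fold, while the ratio of the first to the second stayed between 1.53 and 2.13. From 1 h to 24 h the log2 fold changes were 1.36 (SE 0.43, edgeR's adjusted p = 0.072) and 1.16 (SE 0.47, edgeR's adjusted p = 0.15). The sources used here do not say how reads that match several models were counted, so the values of this pair may not be separate.

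**Figure D5:**
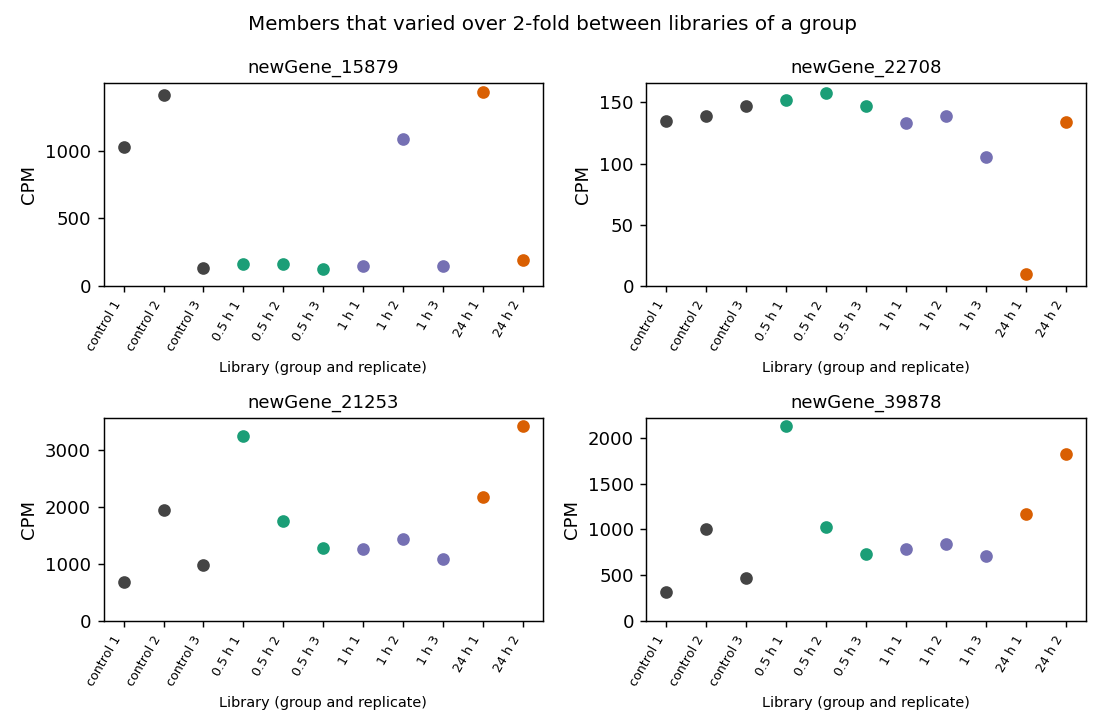
CPM (y axis, from 0) in each library (x axis) for 4 members that ranged over 2-fold within a group, coloured by group; each point is 1 library. newGene_15879 falls at 2 levels, newGene_22708 is at 9.68 in 24 h replicate 1, and newGene_21253 and newGene_39878 are both highest in 0.5 h replicate 1 and 24 h replicate 2.

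Members with consecutive numbers were also looked at after the values were seen, since such models may be pieces of 1 transcript; the sources used here do not say whether numbers follow the genome's order. There were 9 such members (6%). The models newGene_30849 and newGene_30850 (927 and 1338 bases) kept a ratio of CPM between 0.954 and 1.05 over the 11 libraries while each ranged about as widely as the other, 2-fold and 2.03-fold. The ratio of newGene_15877 to newGene_15878 lay between 0.295 and 0.36. That of newGene_15878 to the next number, newGene_15879, lay between 3.32 and 40.6, so these last 2 did not vary together. The ratio of newGene_29251 to newGene_29252 lay between 0.472 and 0.667, and newGene_29252 was also called higher at 24 h than at 1 h, its log2 fold change being 0.84 (SE 0.10, edgeR's adjusted p = 0.001). The ratio of newGene_32405 to newGene_32406 lay between 0.659 and 1.22, and from 1 h to 24 h the first was called higher, at a log2 fold change of 0.76, while the second, at 0.21, was not called. Where models are pieces of 1 transcript, their calls are not separate observations.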

How the data were processed

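Per the labels' protocols, RNA was extracted with the RNeasy Mini Kit and libraries were made with the NEBNext Ultra RNA kit; strand is not stated. HISAT2, a spliced aligner, is named in the submitters' processing notes; the sources used here do not give its version, the genome build, the counting tool or how newGene entries were modelled. The authors deposited 1 whole-number count per gene and library, with a gene length. Of the per-sample columns, 1 matched no label and was not used.

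CPM used the column totals. Tests used R 4.3.3 and edgeR 4.0.16 on all 11 libraries (1 mean per group, filterByExpr, TMM factors, quasi-likelihood F-test, 7 residual and 3.86 prior degrees of freedom), with Benjamini-Hochberg adjustment over 39640 genes. The design had assumed 3 libraries at 24 h and was run with 2. Standard errors are the log2 fold change over the square root of F. Alternatives were other scalings and filters, DESeq2 1.42.0, fits of only 2 groups, a replicate block, single libraries left out and other member lists. The scripts were tested on simulated data.

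The members and lists were chosen with earlier results of these data known. Named by rule were the first 10 members by control CPM, the 2 largest rises and falls from 1 h to 24 h among called members with no overlap, and the 2 widest ranges over 0.5 h and 1 h (CPM + 0.5).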

Additional observations from a re-analysis of the deposited data

Results flagged for a closer look

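These results stand here because the difference between times itself passed edgeR's quasi-likelihood test at an adjusted p under 0.05. Since the control cancels, each contrast between times is also the difference between the 2 times' changes against the control. From 1 h to 24 h 43 members passed it (28.7%, against 9.71% of all genes tested and 22.4% of the 854 annotated genes). From 0.5 h to 24 h 9 did (6%, near the 5.06% of all genes tested). Among the named members, the log2 fold change from 1 h to 24 h was 0.71 for newGene_14837, 0.48 for newGene_15878, 0.77 for newGene_25180, 0.71 for newGene_14902, 0.6 for newGene_6203, 0.56 for newGene_28345, 1.21 for newGene_29251, 1.12 for newGene_35286, -1.08 for newGene_12685 and -0.9 for newGene_1341. Over the 13 alternatives, the call was lost in 9 for newGene_15878, 7 for newGene_6203, 7 for newGene_35286 and 6 for newGene_28345. It was lost in 2 for newGene_14837 and 1 for newGene_14902, and the others kept theirs in all 13. The time in the cold and any batch or hour of harvest that matches it cannot be told apart. Groups of 3 or fewer libraries allow no outlier test.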

How the results depend on the processing

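Calls at 24 h rested on few libraries. Leaving out 1 library at 1 h, 21 to 30 members were called at 24 h against 1 h (43 with all libraries). That was 14% to 20% of the members, beside 6.35% to 7.66% of all genes. Against the control, without 1 control library, 8 to 17 were called (11 with all), or 5.33% to 11.3% beside 4.75% to 7.07%. Against 0.5 h, without 1 library at 0.5 h, 4 to 5 were called (9 with all), or 2.67% to 3.33% beside 2.84% to 3.45%. With either 24 h library left out, fewer members were called in each comparison, and the remaining 24 h library was assumed to vary like the other groups. With the fit restricted to the 2 groups concerned, 18 were called against 1 h (12%, beside 4.51% of all genes) and 6 against the control (4%, beside 5.17%). DESeq2 called 40 against the control (26.7% of the members, beside 12.3% of all genes) and 23 against 0.5 h (15.3%, beside 9.17%). At 1 h against 0.5 h it called 2 (1.33%, beside 0.343%). With library size alone 27 were called against 1 h (18%, beside 13.1% of all genes). With the replicate number as a block, 5 were called against the control (3.33%, beside 5.23% of all genes) and 4 against 0.5 h (2.67%, beside 3.14%). The deviations of same-numbered libraries from their group means correlated at -0.044 to 0.033, and those of other pairs at -0.061 to 0.101. With 2 or 3 libraries in a group, this cannot decide whether the numbers pair the samples. The other counts of called members, including 0 for each comparison among control, 0.5 h and 1 h by edgeR, stayed within 1.5 times. The members' mean share with TMM-scaled totals was 4.9% at 1 h and 6.72% at 24 h. For a list ranked per kb it was 4.82% (control), 5.02% (0.5 h), 4.46% (1 h) and 5.46% (24 h), and without the 10 members of wide range, an alternative chosen after seeing the data, 5.08%, 5.18%, 4.79% and 5.51%. Leaving out 1 library, it was 5.41% to 5.63%, 5.62% to 5.7%, 5.15% to 5.19% and 6.01% to 6.18%. The median length was 1808 for a list ranked at 1 h, 1102 per kb and 1844 by median control CPM. Among named members 2 changes from 1 h to 24 h, neither called, turned in direction: newGene_15879 (-1.06 to 2.65 with 1 library left out, -1.06 without 24 h replicate 1) and newGene_23837 (-0.86 to 0.25, 0.25 without 1 h replicate 2). The cause was not tested. Depth limits a member most at its lowest count of 290, where counting error alone is 5.87%.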
